A study of Mus musculus with 32 samples.

Results

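Open chromatin was described at the loci of 6 genes of the secondary clock loop: Nr1d1, Nr1d2, Rora, Nfil3, Bhlhe40 and Bhlhe41. The members were the ATAC-seq peaks centred in 1 window of the mouse genome (build mm9) around each gene, 1180 kb in all. They comprised 88 of the 91453 peaks of an endothelial list and 111 of the 137684 peaks of a Kupffer cell list, or 199 of 229137 peaks. Kupffer cells are the resident macrophages of the liver. Peaks that touched one of the other cell type over 1 bp or more are called shared, and the rest are endothelial-only or Kupffer-only. A site was a restricted peak or a set of overlapping peaks of both lists, which gave 140 sites.

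ATAC-seq uses a transposase that cuts and tags accessible DNA. The 32 libraries were made from 50000 isolated endothelial or Kupffer cells each, from male C57BL/6J mice on normal chow. There were 4 replicates in each of 8 groups: either cell type, at ZT10 or ZT22, Zeitgeber times counted in hours from lights on, from WT (wild-type) animals or from mice with a REV-ERB a/b double knockout, which the series' design text places in adult hepatocytes. The sources used here do not say how the knockout was made or whether each replicate was 1 mouse. Each deposited list holds positions alone, 1 list per cell type, with no value per library. Hepatocytes, the cells in which that text places the knockout, were not profiled here. Whether Nr1d1 and Nr1d2 were altered in the endothelial or Kupffer cells could not be checked from these lists. Genotype and time were therefore not analysed here, the depth is unknown, and no value below has a replicate or a p-value. A peak absent from a list was not called there, and a site open in fewer cells cannot be told apart from a site less open in every cell.

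REV-ERBα, encoded by Nr1d1, and REV-ERBβ, encoded by Nr1d2, are heme-binding nuclear receptors that repress transcription with the NCoR and HDAC3 corepressor complex. They bind the ROR response element (RORE), at which RORα, encoded by Rora, activates transcription. The activator gene Arntl and the repressor gene Nfil3 are among the targets of this competition. NFIL3 is a bZIP repressor at D-boxes, where the activators DBP, TEF and HLF also bind. BHLHE40 and BHLHE41 are basic helix-loop-helix repressors that bind E-boxes, the elements used by CLOCK and BMAL1, and both have been studied in tissue macrophages. Rorb, Dbp, Tef, Hlf and Ciart, and the markers of endothelial and Kupffer cells, were not analysed here, because no mm9 annotation was used to place them; the identity of the cells was thus not checked.

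The 3 clock elements were looked for in RefSeq promoters of the member genes, which are on another build (GRCm38.p6) and onto which no peak of the lists was placed. Promoters of 5 of the 6 members were in the table. They were searched on both strands, from 250 bases before to 50 after the start, for the E-box CACGTG, the E-box-like CACGTT, the RORE cores TAGGTCA and TGGGTCA, and the D-boxes TTATGTAA and TTACGTAA. The 3 promoters with a match are shown over the 250 bases before the start, 5′ to 3′ on the gene's strand, with the match in capitals. They lie on the minus strand at chr11:98775378-98775627 (Nr1d1), chr13:52981040-52981289 (Nfil3) and chr6:145865421-145865670 (Bhlhe41) of GRCm38.p6.
Nr1d1: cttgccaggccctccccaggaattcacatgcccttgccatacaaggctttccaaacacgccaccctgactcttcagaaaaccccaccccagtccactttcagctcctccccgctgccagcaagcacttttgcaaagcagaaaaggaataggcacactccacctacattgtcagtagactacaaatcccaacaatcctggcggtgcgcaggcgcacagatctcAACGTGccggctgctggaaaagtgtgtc
Nfil3: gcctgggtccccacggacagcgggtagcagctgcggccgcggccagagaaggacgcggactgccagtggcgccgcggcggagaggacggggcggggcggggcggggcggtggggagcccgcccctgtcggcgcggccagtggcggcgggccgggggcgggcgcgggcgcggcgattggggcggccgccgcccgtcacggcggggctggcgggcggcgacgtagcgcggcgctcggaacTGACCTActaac
Bhlhe41: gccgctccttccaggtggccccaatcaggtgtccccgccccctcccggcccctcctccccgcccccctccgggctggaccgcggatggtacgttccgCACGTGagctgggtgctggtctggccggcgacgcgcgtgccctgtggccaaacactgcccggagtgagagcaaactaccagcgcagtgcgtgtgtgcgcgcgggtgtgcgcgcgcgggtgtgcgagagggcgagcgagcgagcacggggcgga
The Nr1d1 promoter held an E-box-like element on the reverse strand, at -28 to -23 from the start, found in 4.68% of all 32851 promoters in the table. The Nfil3 promoter held a RORE core on the reverse strand, at -12 to -6, found in 2.61%. The Bhlhe41 promoter held an E-box at -153 to -148, found in 7.15%. The Nr1d2 and Rora promoters held none of these letters; TGGGTCA, TTATGTAA and TTACGTAA, found in 3.98%, 0.938% and 0.119% of promoters, were in none of the 5. A match in letters is not a bound site.

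Across the 6 windows more sites were shared than restricted to endothelial cells, and about as many were shared as restricted to Kupffer cells. The 140 sites comprised 57 shared, 31 endothelial-only and 52 Kupffer-only sites. Shared sites made up 40.7% of them, beside 30.1% of all 174603 sites of the lists, in which 21.8% were endothelial-only and 48.0% Kupffer-only. Of the endothelial peaks 57 of 88 were shared, or 64.8% (95% exact Clopper-Pearson binomial interval 53.9% to 74.7%), beside 58.3% of the whole endothelial list. Of the Kupffer peaks 59 of 111 were shared, or 53.2% (43.5% to 62.7%), beside 39.1% of the whole Kupffer list. The other 31 endothelial and 52 Kupffer peaks were restricted, as were 41.7% and 60.9% of the lists. The genome's share thus lay inside the interval of the endothelial peaks and below that of the Kupffer peaks. These intervals cover counting error only and treat neighbouring peaks as independent, and no test was made.

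**Figure D1:**
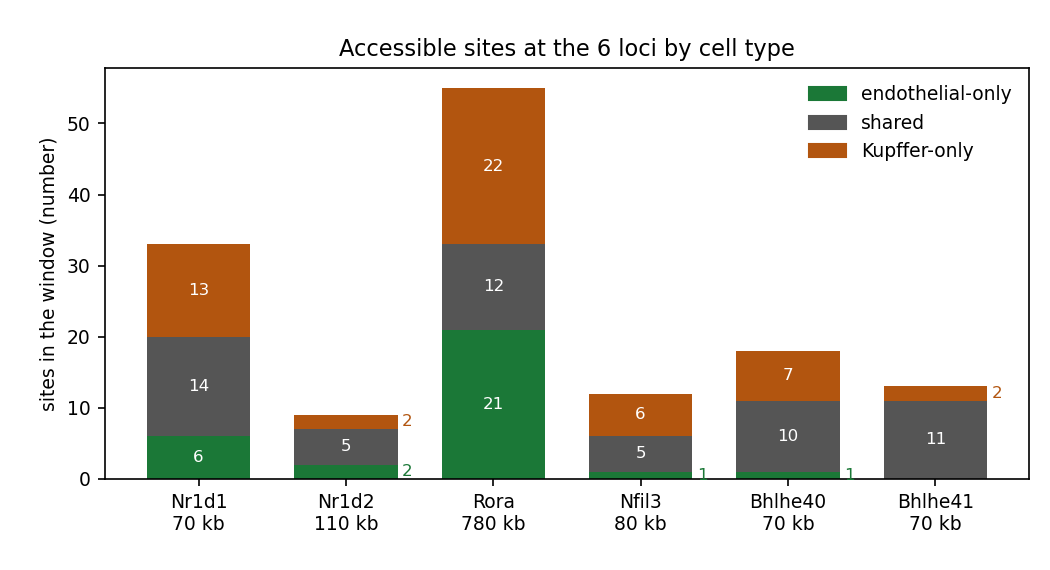
Number of accessible sites in each window, split into endothelial-only (green), shared (grey) and Kupffer-only (orange) sites, with the window length under each gene. Rora holds 55 of the 140 sites and 43 of the 83 restricted sites of the 6 windows in its 780 kb, and Bhlhe41 holds no endothelial-only site. Shared sites make up 21.8% of the sites at Rora, beside 30.1% of all sites of the lists.

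The shared part varied among the loci. Rora had the lowest share of shared peaks in either list, 36.4% of 33 endothelial (20.4% to 54.9%) and 35.3% of 34 Kupffer peaks (19.8% to 53.5%). At the 1 bp rule Bhlhe41 had the highest, 11 of 11 endothelial (71.5% to 100%) and 11 of 13 Kupffer peaks, or 84.6% (54.6% to 98.1%). The intervals of these loci did not overlap under the 1 bp rule, but this rested on the settings: they overlapped under 2 of 6 alternatives for endothelial and 5 of 6 for Kupffer peaks. With shared peaks required to cover 50% of each other, Bhlhe41 had 72.7% shared endothelial (39.0% to 94.0%) and 61.5% shared Kupffer peaks (31.6% to 86.1%), against 27.3% (13.3% to 45.5%) and 26.5% (12.9% to 44.4%) at Rora. The first place of Bhlhe41 among endothelial shares was lost under the same 2 alternatives: Bhlhe40 had 90.9% at the 50% rule, and without peaks of 151 bp Nr1d1 had 100% and Bhlhe40 87.5% against 80.0% at Bhlhe41. Every endothelial-only peak of Nr1d1 was of 151 bp, so the value of Nr1d1 follows from the widths. Loci between Rora and Bhlhe41 could not be separated from each other at these numbers: the endothelial share was 70.0% at Nr1d1 (45.7% to 88.1%), 71.4% at Nr1d2 (29.0% to 96.3%), 83.3% at Nfil3 (35.9% to 99.6%) and 90.9% at Bhlhe40 (58.7% to 99.8%). Among these loci only the interval of Bhlhe40 lay above that of Rora. With windows extended by 25 kb these overlapped too (51.9% to 95.7% against 20.4% to 54.9%). Without Rora, 81.8% of 55 endothelial peaks (69.1% to 90.9%) and 61.0% of 77 Kupffer peaks (49.3% to 72.0%) were shared.

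**Figure D2:**
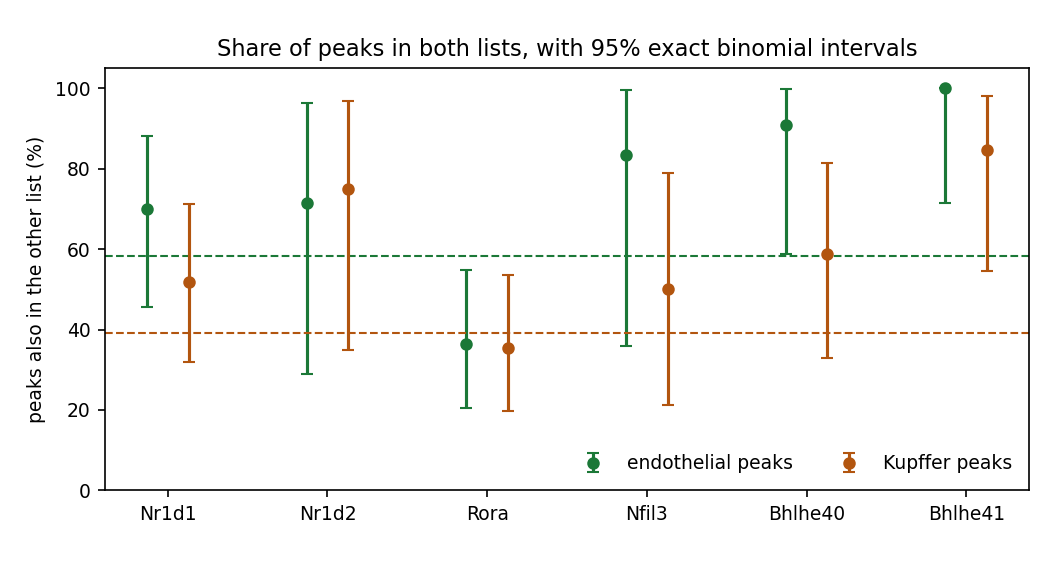
Share of the peaks of each window that overlapped a peak of the other list, for endothelial (green) and Kupffer (orange) peaks, with 95% exact binomial intervals; dashed lines mark the whole lists at 58.3% and 39.1%. Rora is the only window below both lines, and Bhlhe41 has the highest value in each list at the 1 bp rule.

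Nr1d1, the REV-ERBα gene, lay in the most densely covered window, chr11:98600001-98670000. It held 20 endothelial and 27 Kupffer peaks in 70 kb, or 28.6 and 38.6 per 100 kb. Of all 37668 tiles of 70 kb on chromosomes 1 to 19 and X, 0.250% held at least 20 endothelial peaks and 0.196% at least 27 Kupffer peaks. The window is longer than the gene, and in the RefSeq order Nr1d1 overlaps Thra, the thyroid hormone receptor α gene, and lies between Med24 and Msl1. None of the peaks was assigned to a gene here. Of the 33 sites 14 were shared, 6 endothelial-only and 13 Kupffer-only. The shared part, 70.0% of endothelial and 51.9% of Kupffer peaks, was reached by 28.7% of the 94 tiles with at least 20 endothelial peaks and by 23.0% of the 74 tiles with at least 27 Kupffer peaks.

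The sites at Nr1d1 were packed: 25 of 33 lay in clusters of at least 3 sites with gaps of up to 1 kb, or 75.8%, beside 23.9% of all sites. That background was not matched for peak density. The lowest cluster held shared sites at 98601847-98602091 and 98603004-98603271 and 4 Kupffer-only peaks starting at 98601646, 98603537, 98604016 and 98604425. The next held the shared site 98608735-98609043, a Kupffer-only peak at 98608223-98608447 and an endothelial-only peak at 98609839-98609989. A pair of shared sites without restricted neighbours followed, at 98615464-98615731 and 98616159-98616511. The centres of the endothelial and Kupffer peaks of the first of this pair were 1 bp apart.

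After the longest peak-free stretch of the window, 11.6 kb, restricted and shared peaks came in turn around the window centre. Kupffer-only peaks lay at 98628739-98628978 and 98629914-98630170, with an endothelial-only peak at 98628142-98628292. Shared sites followed at 98635129-98635521 and 98636704-98636980, the latter with a Kupffer-only peak at 98637231-98637421 beside it. The endothelial peak of the first of these shared sites was 391 bp wide, the widest endothelial peak of the window, and its Kupffer partner 257 bp.

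The upper part of the window held 7 further shared sites. The first, 98644648-98645002, was preceded by endothelial-only peaks at 98643296-98643446 and 98643541-98643691. Shared sites at 98647119-98647403 and 98647933-98648191 had a Kupffer-only peak at 98648245-98648430 next to them, and that at 98650265-98650509 stood alone. The largest cluster of the 6 windows, with 7 sites in 2422 bp, lay at 98655786-98658207. Its shared sites were 98656079-98656678, 98657090-98657333 and 98657949-98658207. Between the first and second of them lay endothelial-only peaks starting at 98656700 and 98656878, and Kupffer-only peaks started at 98655786 and 98657771. The Kupffer peak of the first shared site was 542 bp wide, the widest of the 199 peaks. The last sites of the window, 98662818-98663175 and 98665419-98665619, were Kupffer-only.

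Restricted peaks of Nr1d1 sat beside peaks of the other cell type, and the endothelial-only ones were all of the narrowest common width. The 6 endothelial-only peaks were each 151 bp wide, a width found in 44.6% of endothelial-only peaks of the whole list. Of the 14 shared endothelial peaks 13 were wider. In the whole list 14541 of 53324 shared endothelial peaks were of 151 bp. The nearest Kupffer peak was less than 1 kb away for 5 of the 6, at a median distance of 622 bp, beside 25.9% of all endothelial-only peaks and a median of 3671 bp. Of the 13 Kupffer-only peaks 9 were as close to an endothelial one, beside 22.5% in the whole list. These backgrounds take in the whole lists and were not matched to the high peak density of this window. Whether the distances are short for that density was not tested. With peaks of 151 bp left out of both lists, 13 endothelial peaks were left in the window and each of them was shared. This follows from the widths: all 6 endothelial-only peaks were left out, and no shared Kupffer peak of the window was of 151 bp. The lists record no height for these peaks.

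**Figure D3:**
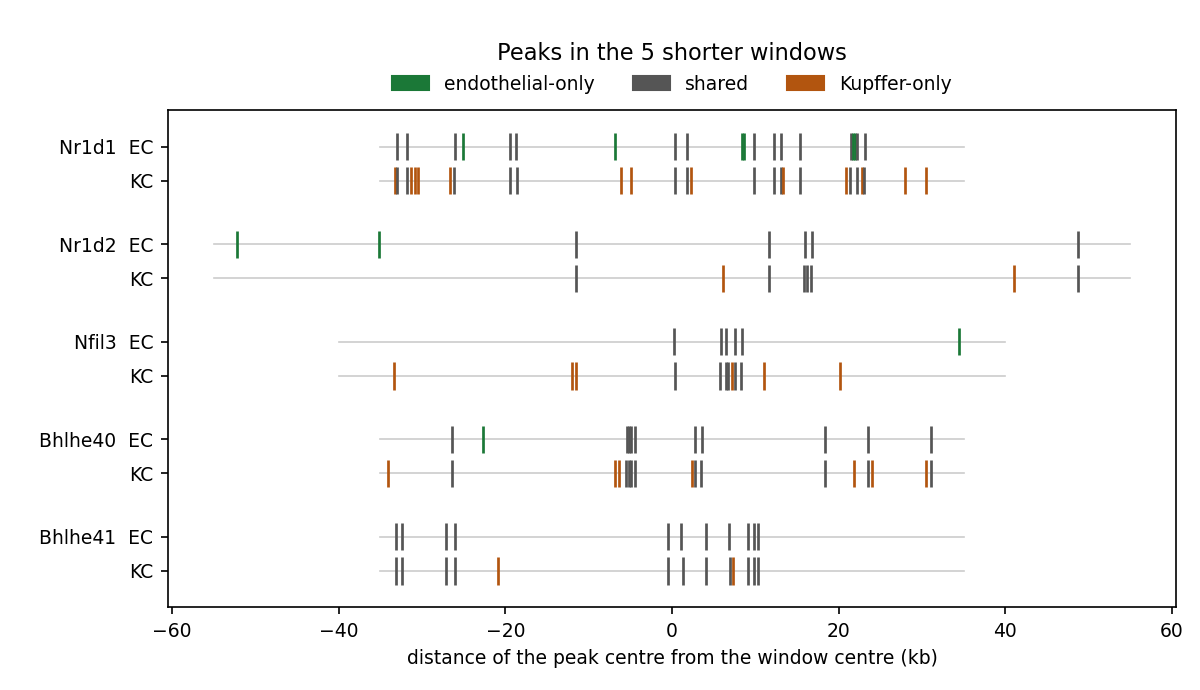
Peaks of the endothelial (EC, upper line) and Kupffer (KC, lower line) lists in the 5 windows other than Rora, by distance of the peak centre from the window centre in kb; each tick is 1 peak, grey where shared, green where endothelial-only and orange where Kupffer-only. The 5 sites of the Nfil3 cluster and the 6 of the main Bhlhe40 cluster stand close to their window centres, and Nr1d1 holds peaks along most of its length.

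Nr1d2, the REV-ERBβ gene, had few and scattered sites. Its window, chr14:19000001-19110000, held 7 endothelial and 8 Kupffer peaks in 110 kb, or 6.36 and 7.27 per 100 kb, against 28.6 and 38.6 at Nr1d1. Tiles of 110 kb held at least as many in 22.2% of 23967 cases for endothelial and in 29.4% for Kupffer peaks. In the RefSeq order the coding neighbours of Nr1d2 are Thrb, the thyroid hormone receptor β gene, and Rpl15, a ribosomal protein gene. Of the 9 sites 5 were shared, 2 endothelial-only and 2 Kupffer-only. Of the Kupffer peaks 6 of 8, or 75.0% (34.9% to 96.8%), were shared, a share reached by 3.06% of the 7037 tiles with at least 8 Kupffer peaks. These tiles held up to 51 Kupffer peaks and were not matched to the window in peak number. Of the 6 shared Kupffer peaks 2 overlapped the same endothelial peak. With peaks within 500 bp joined, 4 of 6 were shared (66.7%), and with 50% of each peak required to overlap, 4 of 8 (50.0%). The endothelial share, 71.4%, was reached by 35.1% of 5309 tiles.

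The only cluster at Nr1d2 was a pair of shared sites, at 19070785-19071232 and 19071614-19071920. The first of them joined 1 endothelial peak of 417 bp to 2 Kupffer peaks of 187 and 156 bp, and the second an endothelial peak of 304 bp to a Kupffer peak of 196 bp. The endothelial peaks were thus the wider ones at this pair. Shared sites that stood alone lay at 19043412-19043637, 19066585-19066811 and 19103608-19103794. The restricted sites were far from the other list: the endothelial-only peaks, at 19002715-19002937 and 19019728-19019880, lay at least 23531 bp from a Kupffer peak, and the Kupffer-only peaks, at 19061023-19061176 and 19096017-19096197, at least 5438 bp from an endothelial one. Both endothelial-only peaks were at the lower end of the window, and the next peak below it, at 18999696-18999846, was endothelial-only as well.

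Rora, the RORα gene, spread over the longest window, chr9:68480001-69260000, and was the locus with most sites restricted to 1 cell type. It held 33 endothelial and 34 Kupffer peaks in 780 kb, or 4.23 and 4.36 per 100 kb, the lowest densities of the 6 loci. Tiles of 780 kb held at least as many in 35.0% of 3373 cases for endothelial and in 45.7% for Kupffer peaks, with medians of 20 and 27 peaks. The low density is thus near that of much of the genome. Of the 55 sites 12 were shared, or 21.8%, 21 were endothelial-only and 22 Kupffer-only. Over all sites of the lists 30.1% were shared, 21.8% endothelial-only and 48.0% Kupffer-only. The endothelial-only part at Rora was thus above that of the lists, and the Kupffer-only part below it. The ratio of Kupffer to endothelial peaks was 1.03, against 1.51 over the whole lists. Of the 1179 tiles with at least 33 endothelial peaks, 95.2% had a shared part of endothelial peaks at least as high as Rora, and 5.17% one as low or lower. For Kupffer peaks, 63.1% of 1543 tiles reached the share of Rora.

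The number of restricted peaks of either cell type varied along the Rora window. Its first 130 kb held 5 endothelial-only peaks and no Kupffer peak at all. The next stretches of 130 kb held 8 and 7 Kupffer-only peaks, against 3 and 1 endothelial-only ones. In the stretch after these the order turned, with 5 endothelial-only and 2 Kupffer-only peaks, and the remaining stretches held 2 and 1, then 5 and 4. In bins of 10 kb, 15 of 78 held endothelial-only without Kupffer-only peaks, 11 the converse, and 3 both kinds; 44 bins were empty. These bins show no more than where the peaks lie: they are not replicates, and a separation of the cell types was not tested.

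**Figure D4:**
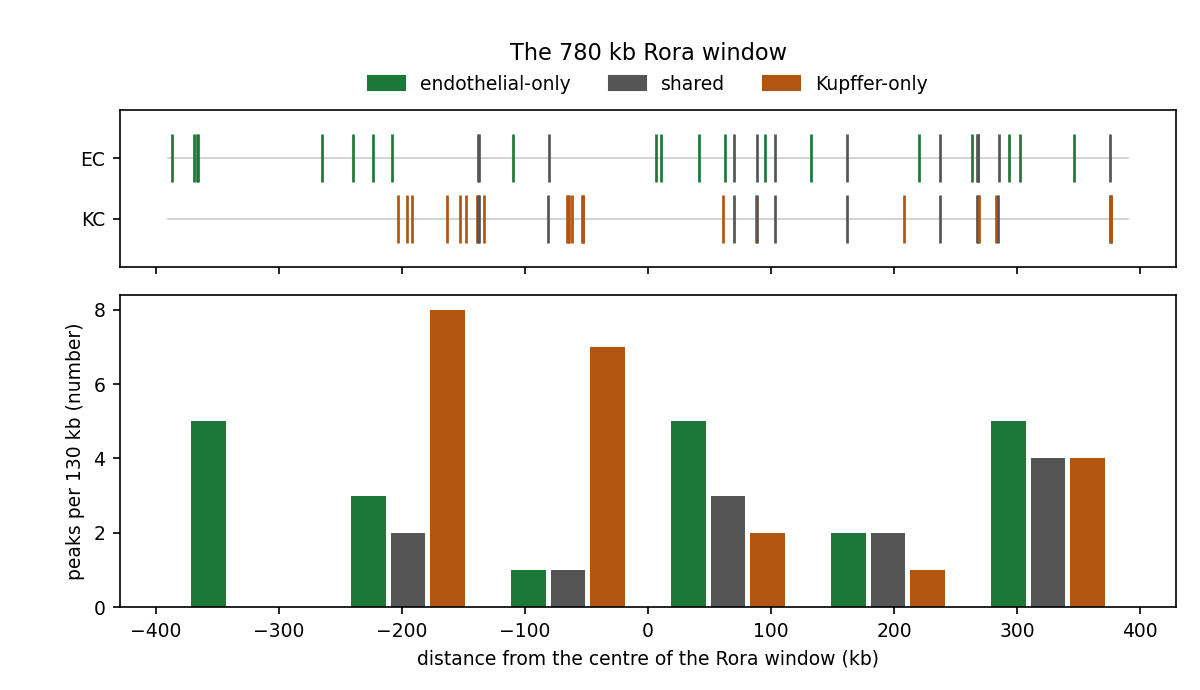
The Rora window by distance from its centre in kb. Above, each tick is 1 peak of the endothelial (EC) or Kupffer (KC) list, coloured as shared (grey), endothelial-only (green) or Kupffer-only (orange); below, the number of endothelial-only, shared endothelial and Kupffer-only peaks in 6 consecutive stretches of 130 kb, with most Kupffer-only peaks, 8 and 7, left of the centre.

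Most runs of neighbouring sites of 1 kind at Rora were short, with a single site in 7 of 10 endothelial-only and 4 of 8 Kupffer-only runs, and a few were long. The lowest 8 sites were endothelial-only, from 68482820 to 68662301, a run of 179.5 kb. This run included the 10 kb bin with most endothelial-only peaks, 68500001-68510000, with 3: those at 68501335-68501618, 68503283-68503479 and 68504085-68504309. The longest peak-free stretch of the window, 100.6 kb, followed these 3 peaks. Below the window no peak of either list was found for 332.5 kb before the lowest endothelial-only peak.

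Kupffer-only sites formed 2 runs of 7. The first ran from 68666510 to 68731193 and directly followed the endothelial-only run, with 4 of its 7 peaks of 151 bp. The second ran over 13.1 kb, from 68804412 to 68817541, and only 1 of its 7 peaks was of 151 bp. It held the 10 kb bin with most Kupffer-only peaks, 68800001-68810000, with 4, and the widest Kupffer-only peak of the locus, 333 bp at 68804933-68805265. The second longest peak-free stretch, 58.5 kb, came after it and ended at the widest endothelial-only peak, 311 bp at 68876060-68876370. Other wide restricted peaks were endothelial-only at 68629995-68630248 and 68760447-68760700, each of 254 bp, and Kupffer-only at 68957554-68957808, of 255 bp, and at 68736637-68736883, of 247 bp.

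Of the 12 shared sites of Rora 6 had no neighbour within 1 kb, 1 lay in a cluster of 2 and 5 in clusters of at least 3 sites. Only 1 run of shared sites was longer than 1, the pair at 68731581-68731811 and 68732335-68732545. The 3 widest shared peaks were endothelial: 296 bp at 68939980-68940275, 283 bp at 69245635-69245917 and 256 bp at 69137577-69137832. Of the 12 shared pairs the endothelial peak was wider in 7, the Kupffer peak in 2, and 3 were equal. Over all 50883 pairs of the lists the endothelial peak was wider in 21489, the Kupffer peak in 21499, and 7895 were equal. Of the 12 Kupffer peaks 7 were of 151 bp, beside 12842 of all 53800 shared Kupffer peaks. Over the 55 shared sites of the 6 windows that joined 1 peak of each list, the endothelial peak was wider in 25, the Kupffer peak in 25, and 5 were equal. Partners at Rora overlapped by a median of 89.5% of the narrower peak, beside 97.8% over all 50883 such sites of the lists. Endothelial-only peaks of Rora lay a median of 23563 bp from the nearest Kupffer peak, beside 3671 bp in the whole list. Kupffer-only peaks lay 11963 bp from an endothelial one, beside 4806 bp. Within 1 kb lay 4.76% of the endothelial-only peaks, beside 25.9%, and 22.7% of the Kupffer-only peaks, beside 22.5%.

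Nfil3, the D-box repressor gene, had 5 shared sites, most of them in 1 cluster. Its window, chr13:53030001-53110000, held 6 endothelial and 12 Kupffer peaks in 80 kb, a ratio of 2.00 beside 1.51 over the whole lists and 1.03 to 1.55 at the other loci, all of which had more Kupffer peaks too. With peaks within 500 bp joined, it held 5 and 8. Tiles of 80 kb held at least as many in 18.8% of 32957 cases for endothelial and in 12.8% for Kupffer peaks. In the RefSeq order its coding neighbours are Auh, a mitochondrial enzyme gene, and Ror2, which encodes a receptor tyrosine kinase and no nuclear receptor. Of the 12 sites 5 were shared, 1 endothelial-only and 6 Kupffer-only. The shared share of endothelial peaks, 83.3%, was reached by 18.6% of 6180 tiles, and that of Kupffer peaks, 50.0% (21.1% to 78.9%), by 31.1% of 4228 tiles.

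Of the 5 shared sites at Nfil3, 4 lay in 1 cluster of 2854 bp, 7.04 kb above the window centre. They were 53075614-53076149, 53076347-53076785, 53077434-53077621 and 53078188-53078467, with a Kupffer-only peak at 53077150-53077300 among them. The endothelial peaks of the first and second were 453 and 375 bp wide and stood over Kupffer peaks of 244 bp and of 194 and 151 bp. At the other sites of the cluster the Kupffer peak was the wider one, 175 and 280 bp against 151 bp in each case. The fifth shared site, 53070213-53070384, stood alone. The centres of the peaks of the first site were 187.5 bp apart, the largest distance among the shared sites of the 6 windows that joined 1 peak of each list.

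The other Nfil3 sites flanked this cluster. Kupffer-only peaks lay below it at 53036540-53036690, 53057856-53058097 and 53058357-53058507, and above it at 53080898-53081102 and 53090078-53090228. The only endothelial-only peak, 53104317-53104467, was the last of the window. It was 151 bp wide, as were 4 of the 6 Kupffer-only peaks, beside 27.4% of Kupffer-only peaks of the whole list. A Kupffer-only peak at 53029882-53030032 missed the window by 0.0435 kb. The next peaks outside both ends were Kupffer-only too, and with the window extended by 25 kb on each side it held 20 Kupffer peaks.

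Bhlhe40 and Bhlhe41, the E-box repressor genes, had windows of the same length on chromosome 6 and the same number of endothelial peaks, 11 each. Tiles of 70 kb held at least 11 endothelial peaks in 4.83% of cases. Almost all of these peaks were shared, 10 at Bhlhe40 and 11 at Bhlhe41. At the 1 bp rule, on which the rank of Bhlhe41 rests, 4.78% of the 1821 tiles with at least 11 endothelial peaks had a share as high as that of Bhlhe40 and 0.714% one as high as that of Bhlhe41. Kupffer-only peaks were 7 of 17 Kupffer peaks at Bhlhe40 and 2 of 13 at Bhlhe41, beside 60.9% of the whole Kupffer list. The intervals of the shared part, 58.8% (32.9% to 81.6%) and 84.6% (54.6% to 98.1%), overlapped, so the genes could not be separated.

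The Bhlhe40 window, chr6:108580001-108650000, was led by a cluster of 6 sites in 2522 bp. Its upper 4 sites were shared and followed each other with gaps of 40 to 208 bp: 108609342-108609686, 108609791-108609958, 108609999-108610193 and 108610402-108610611. The lower 2 were Kupffer-only, at 108608090-108608241 and 108608459-108608742. A second cluster held shared sites at 108617596-108617832 and 108618403-108618670 and a Kupffer-only peak at 108617374-108617524. Tiles of 70 kb held at least 17 Kupffer peaks in 3.69% of cases, and 14.0% of these 1390 tiles reached the Kupffer share of Bhlhe40. In the RefSeq order the coding neighbours are Itpr1, a calcium channel gene, and Arl8b, a lysosomal GTPase gene.

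The remaining sites of Bhlhe40 were shared at 108588538-108588716, 108633296-108633476, 108638410-108638659 and 108645995-108646267. Kupffer-only peaks lay at 108580872-108581061, 108636696-108636889, 108638898-108639081 and 108645339-108645554, the last 2 within 1 kb of a shared site. The only endothelial-only peak, at 108592191-108592341, was of 151 bp and 3474 bp from the nearest Kupffer peak. The 2 nearest peaks outside either end of the window were Kupffer-only, and with 25 kb added on each side the window held 31 Kupffer peaks, of which 41.9% were shared.

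The Bhlhe41 window, chr6:145770001-145840000, held 13 sites, of which 11 were shared and 2 Kupffer-only. The shared part of Kupffer peaks, 84.6%, was reached by 0.248% of the 3220 tiles with at least 13 Kupffer peaks, which were 8.55% of all tiles. These tiles held up to 38 Kupffer peaks and were not matched to the window in peak number. At the lower end lay 2 pairs of shared sites, 145771760-145771988 with 145772424-145772685, and 145777635-145778068 with 145778758-145779057. Shared sites without a neighbour within 1 kb followed at 145804231-145804767, 145805977-145806441 and 145809010-145809216. The first of these, with its centre close to the window centre, joined peaks of 489 bp in endothelial and 520 bp in Kupffer cells, which overlapped by 472 bp. No other site of the 6 windows had a peak of over 450 bp in both lists.

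Above them came the shared site 145811589-145812002 with a Kupffer-only peak at 145812198-145812430 beside it, and a cluster of 3 shared sites at 145813961-145814196, 145814600-145815085 and 145815183-145815432. The other Kupffer-only peak, at 145784033-145784293, lay 4997 bp from the nearest endothelial peak. Beyond the last shared site no peak of either list was found for 67.1 kb, which takes in the upper end of the window. The coding neighbours in the RefSeq order are Rassf8 and Sspn, which encodes sarcospan, a membrane protein of muscle.

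Shared endothelial peaks had the higher median width at each of the 5 loci that held endothelial-only peaks. The endothelial-only medians rested on 21 peaks at Rora and 6 at Nr1d1, but on 2 at Nr1d2 and 1 each at Nfil3 and Bhlhe40. The median width over the 6 windows was 229 bp for shared and 151 bp for endothelial-only peaks of the endothelial list, beside 210 and 171 bp in the whole list. Of the 31 endothelial-only peaks 18 were of 151 bp, as were 10 of the 57 shared ones. In the whole list 16990 of 38129 endothelial-only and 14541 of 53324 shared endothelial peaks had this width. Kupffer peaks differed less, with medians of 207 bp for shared and 190.5 bp for Kupffer-only peaks, beside 207 and 194 bp in the whole list. At 3 loci the Kupffer-only median was the higher one: 190 against 151 bp at Rora, 190 against 185.5 bp at Bhlhe40 and 247 against 239 bp at Bhlhe41. These medians rested on 22, 7 and 2 Kupffer-only peaks. At Nr1d1 the medians were 266 and 151 bp in the endothelial list and 257 and 192 bp in the Kupffer list.

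**Figure D5:**
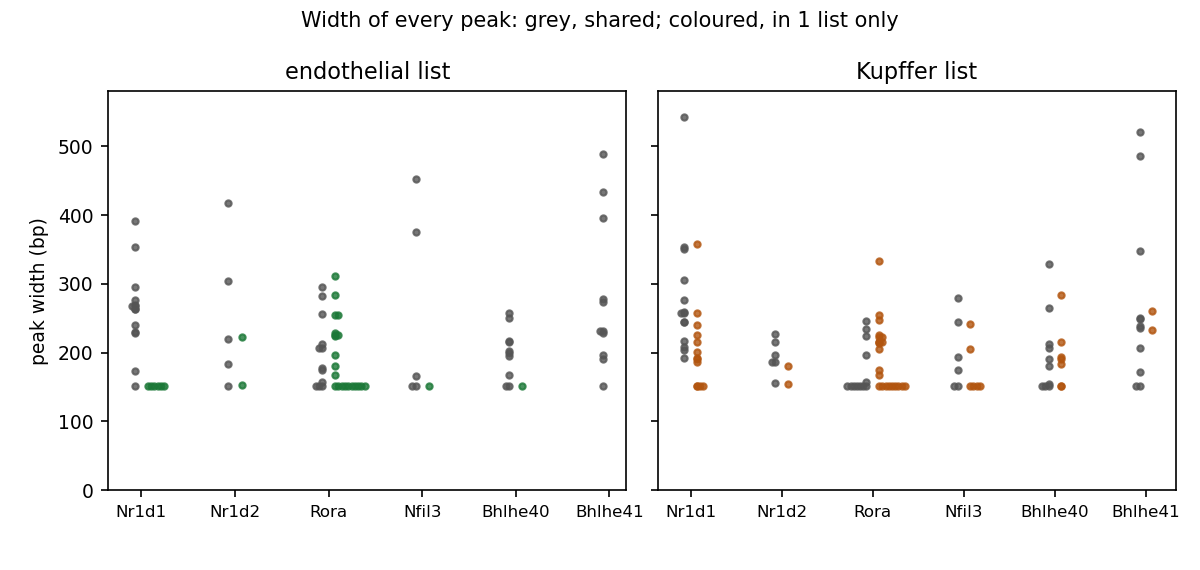
Width in bp of every peak of the 6 windows in the endothelial list (left) and the Kupffer list (right); each point is 1 peak, grey where shared and coloured where restricted. All 6 endothelial-only peaks of Nr1d1 lie at 151 bp, and endothelial-only peaks of Rora reach 311 bp.

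Clustering also differed among the loci. Outside Rora, 42 of 85 sites, or 49.4%, lay in clusters of at least 3 sites, beside 23.9% of all sites, a background not matched for peak density. Of these 42 sites 22 were shared, or 52.4%, beside 38.4% of such sites over the whole lists. Nr1d1 alone held 25 of the 42, and 36.0% of its 25 were shared. The rest were 9 of 18 sites at Bhlhe40 (50.0%), 5 of 12 at Nfil3 (41.7%) and 3 of 13 at Bhlhe41 (23.1%). Of these, 66.7%, 80.0% and 100% were shared. At Rora 16 of 55 sites lay in such clusters, or 29.1%, and at Nr1d2 none of 9. Of the sites without a neighbour within 1 kb, 6 of 35 were shared at Rora, or 17.1%, and 11 of 25 in the other windows, or 44.0%, beside 25.0% of such sites over the whole lists.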

How the data were processed

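Per the labels, 32 ATAC-seq libraries of endothelial and Kupffer cells were made. The authors deposited 1 peak list per cell type, with chromosome, start and end, and no score or count. The submitters' processing notes name Bowtie, HOMER and the build mm9. Versions, the peak threshold, pooling of libraries and any shift for the transposase are not given there or in the other sources.

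Peaks were taken by their centres in the 6 windows and compared by overlap of at least 1 bp, with NumPy 2.4.6 in Python 3.11.15. The counting was tested on simulated data, and bedtools 2.31.1 gave the same 53324 shared endothelial and 53800 shared Kupffer peaks. Intervals are exact 95% binomial intervals from SciPy 1.17.1. Tiles are non-overlapping stretches of a window's length on chromosomes 1 to 19 and X, from the chromosome start to the last full tile before the last peak; they describe the background and are no test. Tiles compared by their shared part had at least the window's number of peaks and were not matched to it. Very high or very low shares are harder to reach in tiles with more peaks. The depth per library is unknown. The gene table is on GRCm38, so only names, chromosomes (6 of 6 matched) and gene order were used; each window was longer than its gene.

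Each site of the windows under 200 kb was named, and at Rora the 3 widest peaks of each kind, the longest runs, the 2 longest peak-free stretches and the fullest 10 kb bins. The members, lists and windows were chosen with earlier results of these data known. The shares of shared peaks in tiles, the split of Rora into 130 kb stretches and the counts of 151 bp peaks were chosen after the values were seen. Alternatives covered the overlap, the window limits, joining of close peaks, peaks of 151 bp, Rora and tiles without peaks.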

Additional observations from a re-analysis of the deposited data

How the results depend on the processing

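Shares of single loci rest on 6 to 34 peaks, so that a share inside its wide binomial interval is no sign of stability: with 50% of each peak required to overlap, the endothelial share of Bhlhe41 was 72.7% and the Kupffer share of Nr1d2 50.0%. The endothelial share of Nr1d2 was 50.0% in the extended window. Rora had the lowest endothelial share under 6 of 6 alternatives and the lowest Kupffer share under 5; in extended windows Nfil3 had 35.0% against 35.3%. Leaving out Rora gave 55 endothelial peaks, 81.8% of them shared, and allowing gaps of 500 bp between shared peaks gave 68.5% of Kupffer peaks, beside 48.0% of the whole list. Without peaks of 151 bp, Nr1d1 held 13 endothelial peaks, 100% of them shared, Rora 20 endothelial and 18 Kupffer peaks, and Nfil3 3 and 6. Windows extended by 25 kb held 12 endothelial peaks at Nr1d2, 20 Kupffer peaks at Nfil3 and 31 at Bhlhe40. Windows shortened by 10 kb held 17 Kupffer peaks at Nr1d1, 7 endothelial peaks at Bhlhe41, and at Nfil3 100% shared endothelial peaks. Joining peaks within 500 bp gave 15 Kupffer peaks at Nr1d1, 73.3% of them shared, and 10 at Bhlhe40; with gaps of 500 bp allowed between shared peaks, 81.5% of Kupffer peaks at Nr1d1 were. Among tiles with a peak, the percentage with at least as many endothelial and Kupffer peaks was 0.403% and 0.317% at Nr1d1, 32.4% and 43.0% at Nr1d2, 38.2% and 50.0% at Rora, 29.3% and 20.1% at Nfil3, 7.80% and 5.95% at Bhlhe40, and 7.80% and 13.8% at Bhlhe41. Leaving out peaks, empty tiles or a locus changes these counts by construction. No paired analysis was possible because neither list separates its libraries, which also prevents leaving out a replicate. As the depth is unknown, an absent peak may have been missed.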
